A study of Mus musculus with 9 samples.

Results

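The genes described here are 44 genes of DNA replication and S phase. They were chosen by gene symbol from the 20778 symbols of the deposited table. The rule held no measured value, but earlier results of these data were known when it was made. All 44 symbols were found there, and 43 of them were among the 13773 genes with a mean normalized count of at least 10 over the 9 libraries, which were the genes tested. The one left out was Rfc1, the large subunit of the clamp loader, which is listed at 0 in all 9 libraries.

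RNA was sequenced in bulk from 9 libraries in 3 groups of 3, all of C57BL/6 origin and all built around GL261, a mouse glioblastoma line that carried an mCherry label. The 3D bioink group was a penta-culture of GL261 with freshly isolated astrocytes, microglia, pericytes and endothelial cells in a fibrin gel. The 2D culture group was the same mixture on a petri dish. In both cultures GL261 was seeded at 1000000 cells per ml, the 5 cell types were combined at 1:1:2:0.1:0.1, and the primary cells came from brains of male mice of 6 to 10 weeks. The culture time before RNA extraction is not given in the sources used here. For the tumour group, 50000 GL261 cells were placed in the striatum of immunocompetent male mice at 7 weeks of age, and the brains were taken on day 14. The protocol gives 5 mice and does not say which animals, or which cultures, gave which library. The p-values below therefore measure the spread between libraries, which may be technical.

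Replication begins when the origin recognition complex, with Cdc6 and Cdt1, loads the ring-shaped Mcm2-7 helicase onto DNA in G1. Cdc45 and the GINS complex then switch the helicase on, DNA polymerases alpha, epsilon and delta copy the strands, and a sliding clamp and its loader hold the polymerases in place. Many of these genes are transcribed together at the passage from G1 to S under E2F transcription factors, so their RNA is high in cycling cells and low in resting cells. In gliomas the tumour cells are the main cycling population, while most neurons and glia of the adult brain rest.

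Each library held a mixture of cells, so fewer cycling cells and less of these RNAs in each cycling cell cannot be told apart. Markers of the seeded microglia were low in both cultures. The summed normalized count of 10 microglia markers was 1208 to 1241 in 3D bioink and 683 to 750 in 2D culture, against 36577 to 39901 in tumours, and C1qa was listed at 0 in all 3 libraries of 2D culture. For 8 markers of infiltrating macrophages the sum was 466 to 555 in 3D bioink and 179 to 213 in 2D culture, against 32118 to 33014 in tumours. Ly6c2 was listed at 0 in all libraries of both cultures. Of these lists, 9 of 10 and 7 of 8 genes fell in 3D bioink against tumours, where 37.3% of all tested genes fell. In 2D culture against tumours 9 of 10 and 8 of 8 fell, where 27.0% of all tested genes fell. Of the other seeded cells, 8 astrocyte markers summed to 6519 to 6878 in 3D bioink, 6098 to 6366 in 2D culture and 5394 to 5815 in tumours, and 8 pericyte markers summed to 2818 to 3040 in 3D bioink, 1039 to 1090 in 2D culture and 4236 to 4605 in tumours. The pericyte sum in tumours was mostly Anpep (2646 to 3054 there). Of the 6 pericyte markers tested, 4 rose and 1 fell in 3D bioink against tumours (median log2 fold change 1.06). Of all tested genes, 27.1% rose and 37.3% fell there. In 2D culture against tumours 2 of the 6 rose and 4 fell (median -1.59), against 27.3% and 27.0% of all tested genes. For 8 endothelial markers the sums were 3867 to 6079 in 3D bioink, 4173 to 4575 in 2D culture and 4677 to 4949 in tumours. Of the 7 tested, 1 rose and 2 fell in 3D bioink against tumours (median log2 fold change -0.22). In 2D culture against tumours 1 rose and 3 fell (median -0.74). Of the 8 astrocyte markers, 3 rose and 2 fell in 3D bioink (median 0.43), and 3 rose and 3 fell in 2D culture (median 0.22). The shares of all tested genes are those just given. Similar sums thus hid markers that moved apart. Fibroblast markers, a cell type that the labels do not name, summed to 21997 to 23753 in 3D bioink, 11782 to 12343 in 2D culture and 12852 to 13684 in tumours over 6 genes. By gene the differences were larger than these sums show. Of the 6, 5 rose and 1 fell in 3D bioink against tumours (median log2 fold change 3.50). In 2D culture against tumours 3 rose and 1 fell (median 0.36). The part of these cells in the values that follow was not tested. Digestion before RNA extraction is recorded for the bioink only, for 3 h with collagenase II at 600 U per ml, and this step cannot be told apart from the gel itself. The 3D bioink library of replicate 1 had the lowest weight of the 9 in limma's array weights, 0.236 against 0.688 to 4.96.

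The replication genes took 3 levels in the 3 groups. Summed over all 44 genes, the normalized counts were 30790, 32500 and 32139 in 3D bioink, 82147, 80957 and 81910 in 2D culture, and 50860, 49619 and 50134 in tumours. The 3 groups did not overlap, with 2D culture highest and 3D bioink lowest. Of the 43 genes tested, 23 had every 3D bioink library below every tumour library and every tumour library below every 2D culture library. The same strict order held for 8.29% of all 13773 genes.

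Set against tumours, more replication genes were lower than higher in the 3D bioink, and how many depended on the scaling. By limma at an adjusted p under 0.05, 27 of 43 genes fell and 5 rose in the values as deposited, where 37.3% of all tested genes fell and 27.1% rose. Their median log2 fold change, on the log2(value + 1) scale used throughout, was -0.47, against -0.11 over all tested genes. At equal upper quartiles 21 fell and 6 rose (median -0.23), and at equal totals 21 fell and 7 rose (median -0.21). The count of risers was the less stable of these, with 3 without 3D bioink replicate 2. In 2D culture, 32 of 43 genes rose against tumours and 0 fell by limma, nor did any fall at an unadjusted p under 0.05, where 27.3% of all tested genes rose and 27.0% fell. The median was 0.74, against 0.01 over all tested genes. Both cultures were set against the same 3 tumour libraries, so these comparisons are not independent of each other.

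By the median, the difference between the cultures was wider than either difference from tumours. All 43 genes had a negative log2 fold change in 3D bioink against 2D culture, 40 of them fell, and 33 were at -1 or below. By limma 0 rose, also at an unadjusted p under 0.05. Of all tested genes, 32.2% fell and 27.0% rose in this comparison. The median was -1.42, against -0.02 over all tested genes. The genes not called were Gins3, Rfc2 and E2f1.

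**Figure D1:**
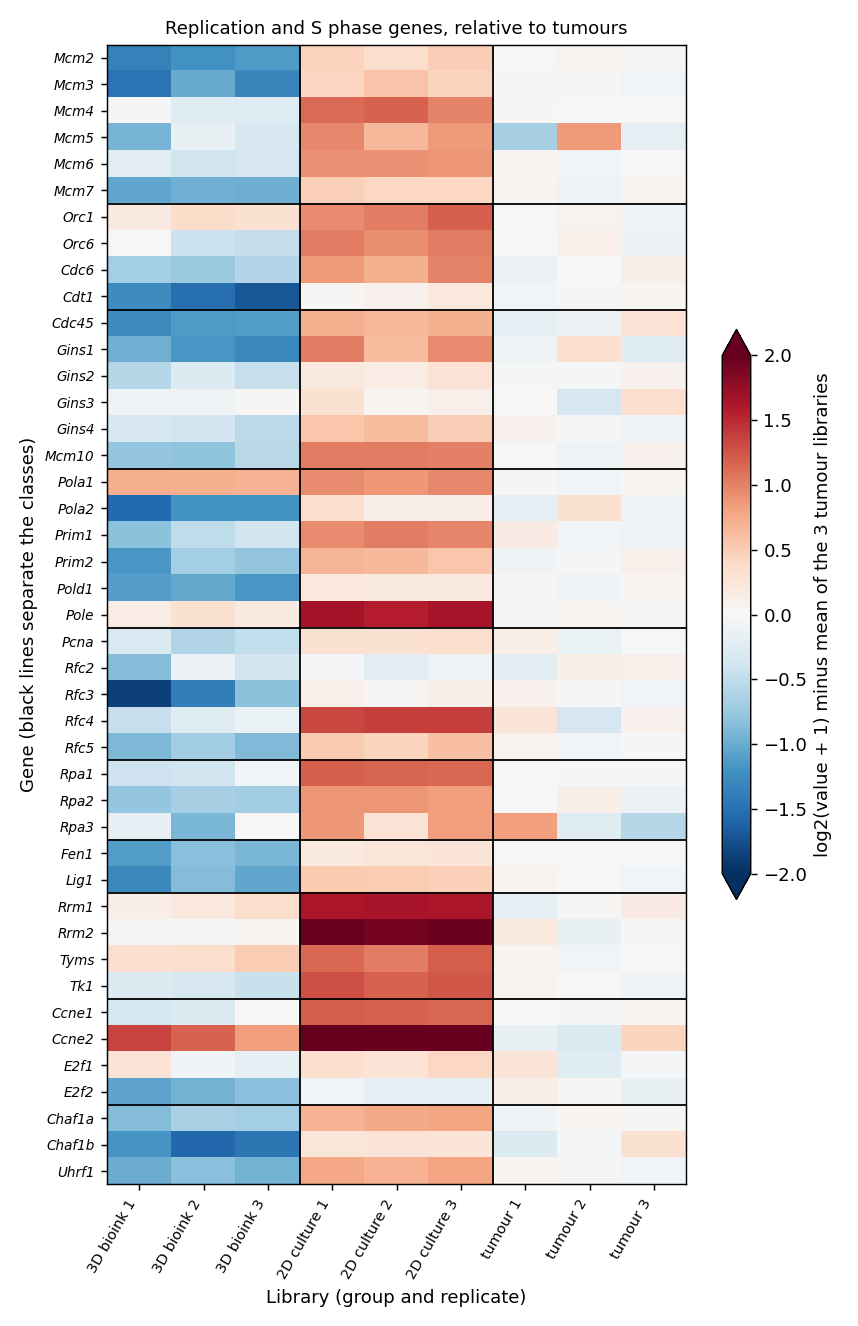
Normalized counts of the 43 tested replication genes in each of the 9 libraries (columns), on a log2(value + 1) scale minus the mean of the 3 tumour libraries (colour, where differences beyond 2 share the end colour), with genes (rows) grouped by role. Blue dominates the 3D bioink columns except for Orc1, Pola1, Pole, Rrm1, Tyms and Ccne2, and red dominates the 2D culture columns.

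How far the libraries could be compared was checked with other scalings. The deposited values summed to different totals by group, and 3 other scalings moved the median of all genes in 3D bioink against tumours upward by 0.16 (quantile normalization), 0.24 (equal upper quartiles) and 0.26 (equal totals). In 2D culture against tumours quantile normalization moved it by 0.17. For 3D bioink against 2D culture, equal upper quartiles moved it by 0.22 and equal totals by 0.19. Relative to the median of all genes, the median of the replication genes was -0.35 in 3D bioink against tumours, as deposited and after quantile normalization. This relative median was 0.74 in 2D culture against tumours and -1.40 in 3D bioink against 2D culture, and 0.60 and -1.18 after quantile normalization. Equal upper quartiles, equal totals and the median of ratios divide each library by a constant. They shift all genes nearly alike, so they could hardly change the relative median and are no check of it. The balance of all genes moved more. Against tumours, 3737 genes rose in 3D bioink and 5132 fell there as deposited, while 4734 rose and 3846 fell at equal upper quartiles and 4906 rose and 3816 fell at equal totals. Against 2D culture, 3713 rose in 3D bioink and 4435 fell as deposited, while 4834 rose and 3193 fell at equal upper quartiles and 4728 rose and 3437 fell at equal totals.

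Because these genes are known as E2F targets, the promoters in RefSeq (GRCm38.p6, the assembly also called mm10) were searched. Each window ran from 250 bases before to 50 bases after an annotated start. For some genes, among them Pola1, Cdc6, E2f1, Mcm7 and Rfc1, a start used lay inside the outer bounds of the gene. Distances below are from the start used, and words near other starts would be missed. Windows were used for 36 of the 44 genes, all but Ccne2, Gins1, Gins2, Gins4, Mcm4, Pole, Prim2 and Rfc2. The letters searched were TTTCCCGC, TTTCGCGC, TTTGCCGC and TTTGGCGC, on both strands and with overlapping matches counted separately. At least 1 of these words was present in 14 of 36 replication genes (38.9%), against 704 of 27025 genes with a window (2.605%). The 14 were Cdc6, Cdt1, E2f2, Gins3, Lig1, Mcm3, Mcm5, Mcm6, Mcm7, Orc1, Pola1, Pold1, Rfc3 and Uhrf1. In their windows the 20 matches began between 185 bases before and 39 bases after the start, with a median 34 bases before it. Of the 14 genes, 10 fell and 1 rose in 3D bioink against tumours, 9 rose in 2D culture against tumours, and 13 fell in 3D bioink against 2D culture. Of the 21 tested genes whose windows lacked the words, 13 fell and 2 rose in 3D bioink against tumours. In 2D culture against tumours 17 of them rose, and 20 fell in 3D bioink against 2D culture. Of all tested genes, 37.3% fell and 27.1% rose in the first comparison, 27.3% rose in the second and 32.2% fell in the third. The letters CCAAT, again on both strands, were in 23 of the 36 (63.9%) and in 41.1% of all genes. In a mitosis list they were in 17 of 23 genes (73.9%). TTTGAA, a word of the cell cycle genes homology region of mitotic promoters, was in 5 of the 36 (13.9%) and in 20.2% of all genes. In the mitosis list TTTGAA was in 16 of 23 genes (69.6%). A match is a stretch of letters and does not show that a factor binds there.

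Shown here are 5 of these windows, 3 from helicase genes and 1 each from a clamp loader gene that fell in 3D bioink and a polymerase gene that rose there. The capitals mark the E2F words on either strand, and all windows are written 5′ to 3′ on the strand of the gene. In Mcm6 (chr1:128359656-128359955, minus strand) the words began 110, 106 and 47 bases before the start, and the first 2 overlap. In Mcm3 (chr1:20820263-20820562, minus strand) they began 19 and 38 bases after it, one on each strand. Mcm7 (chr5:138171834-138172133, minus strand, the one of its 2 windows with a match) had one 165 bases before and one 16 bases after the start. Rfc3 (chr5:151651159-151651458, minus strand) had one 10 bases before the start and one at the start itself. Pola1 (chrX:93632106-93632405, minus strand) had a single word 138 bases before it.
Mcm6: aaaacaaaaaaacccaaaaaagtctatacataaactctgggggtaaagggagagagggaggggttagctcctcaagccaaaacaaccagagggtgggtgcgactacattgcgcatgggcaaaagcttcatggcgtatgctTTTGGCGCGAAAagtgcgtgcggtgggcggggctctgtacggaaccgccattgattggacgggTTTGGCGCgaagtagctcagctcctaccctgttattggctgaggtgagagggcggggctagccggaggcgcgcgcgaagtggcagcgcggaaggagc
Mcm3: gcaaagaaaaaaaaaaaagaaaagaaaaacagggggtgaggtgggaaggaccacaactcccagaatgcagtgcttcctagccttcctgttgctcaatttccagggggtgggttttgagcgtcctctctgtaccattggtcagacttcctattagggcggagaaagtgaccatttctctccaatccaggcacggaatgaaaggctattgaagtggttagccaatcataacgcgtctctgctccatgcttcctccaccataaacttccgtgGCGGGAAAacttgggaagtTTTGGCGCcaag
Mcm7: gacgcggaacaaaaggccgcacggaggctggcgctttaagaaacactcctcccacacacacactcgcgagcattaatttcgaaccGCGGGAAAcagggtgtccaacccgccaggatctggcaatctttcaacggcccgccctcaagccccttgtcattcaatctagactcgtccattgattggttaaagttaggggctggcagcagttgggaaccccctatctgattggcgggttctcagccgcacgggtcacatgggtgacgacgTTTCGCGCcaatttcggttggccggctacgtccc
Rfc3: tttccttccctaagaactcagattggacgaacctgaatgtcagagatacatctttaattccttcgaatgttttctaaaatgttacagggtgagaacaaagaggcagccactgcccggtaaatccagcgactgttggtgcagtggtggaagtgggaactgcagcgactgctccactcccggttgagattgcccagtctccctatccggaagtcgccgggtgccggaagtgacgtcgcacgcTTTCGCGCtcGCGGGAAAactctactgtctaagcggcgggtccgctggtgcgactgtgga
Pola1: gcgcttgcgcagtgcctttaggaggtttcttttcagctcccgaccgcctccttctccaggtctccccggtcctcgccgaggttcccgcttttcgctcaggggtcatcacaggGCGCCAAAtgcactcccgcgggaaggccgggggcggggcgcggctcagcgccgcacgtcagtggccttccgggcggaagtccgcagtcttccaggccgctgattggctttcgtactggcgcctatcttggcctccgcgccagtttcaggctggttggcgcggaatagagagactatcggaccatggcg

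The Mcm2-7 genes encode the 6 subunits of the helicase that unwinds DNA at the fork. Summed over the 6, normalized counts were 9234 to 9941 in 3D bioink, 26347 to 27074 in 2D culture and 17623 to 18107 in tumours, and the groups did not overlap. In 3D bioink 4 fell against tumours, in 2D culture 5 rose against tumours, and all 6 fell in 3D bioink against 2D culture. Of all tested genes, 37.3%, 27.3% and 32.2% were called in these directions.

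Mcm3 had normalized counts of 2105, 2934 and 2369 in 3D bioink, 7947, 8692 and 7974 in 2D culture, and 6012, 5950 and 5694 in tumours. The groups were apart, and the lowest 2D culture library lay above the highest tumour library. In 3D bioink it was 2.41-fold lower than in tumours (log2 fold change -1.27, SE 0.10, limma adjusted p = 3.55e-06). In 2D culture its log2 fold change against tumours was 0.48 (SE 0.10, limma adjusted p = 0.00303), and in 3D bioink against 2D culture it was -1.74 (limma adjusted p = 5.23e-07). Mcm2 followed with 1274, 1406 and 1472 in 3D bioink, 4411, 4130 and 4554 in 2D culture, and 3216, 3369 and 3145 in tumours. It fell 2.35-fold in 3D bioink against tumours (limma adjusted p = 2.2e-07). Mcm7 had 2150, 2273 and 2253 in 3D bioink, 6166, 5876 and 5888 in 2D culture, and 4588, 4112 and 4574 in tumours, a log2 fold change of -0.99 in 3D bioink against tumours and 0.44 in 2D culture against tumours. For these 3 subunits the log2 fold change in 3D bioink against tumours was larger in size than the one in 2D culture (0.43 for Mcm2).

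For Mcm4 and Mcm6 the change in 2D culture was the larger. Mcm4 had normalized counts of 1091, 942 and 943 in 3D bioink, 2461, 2561 and 2239 in 2D culture, and 1138, 1112 and 1122 in tumours. It rose 2.15-fold in 2D culture against tumours (log2 fold change 1.10, SE 0.08, limma adjusted p = 1.2e-06) and was not called in 3D bioink against tumours (log2 fold change -0.18, limma adjusted p = 0.0581), where its sign turned at equal upper quartiles (0.055) and at equal totals (0.079). It was called lower there with array weights (-0.24) and without 3D bioink replicate 1 (-0.25). Mcm6 had 2520, 2224 and 2326 in 3D bioink, 5531, 5533 and 5364 in 2D culture, and 3040, 2798 and 2929 in tumours. Its 1.241-fold fall in 3D bioink against tumours (limma adjusted p = 0.000957) was not called under quantile normalization, equal upper quartiles or equal totals (log2 fold change -0.087, -0.073 and -0.049). The rise of Mcm6 in 2D culture was 1.87-fold (limma adjusted p = 6.67e-07). Mcm5 was the least steady of the 6, with 94, 162 and 145 in 3D bioink, 351, 282 and 328 in 2D culture, and 113, 326 and 159 in tumours. Its tumour libraries overlapped both cultures, and only its fall in 3D bioink against 2D culture passed (log2 fold change -1.29, SE 0.35, limma adjusted p = 0.0106). Without tumour replicate 2, Mcm5 also rose in 2D culture against tumours (log2 fold change 1.245).

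Among the 4 licensing genes, the loading factor Cdt1 fell furthest in the bioink. Cdt1, which brings the helicase to origins, had normalized counts of 601, 505 and 441 in 3D bioink, 1458, 1519 and 1660 in 2D culture, and 1385, 1452 and 1470 in tumours. It was 2.80-fold lower in 3D bioink than in tumours (log2 fold change -1.49, SE 0.11, limma adjusted p = 1.48e-06), the lowest log2 fold change of the 43 genes in that comparison. In 2D culture it overlapped tumours (log2 fold change 0.10, limma adjusted p = 0.439). Cdc6, the ATPase that works with Cdt1, had 335, 320 and 356 in 3D bioink, 970, 879 and 1067 in 2D culture, and 492, 541 and 580 in tumours. Cdc6 fell in 3D bioink (log2 fold change -0.67, limma adjusted p = 0.00024) and rose in 2D culture (log2 fold change 0.85, limma adjusted p = 5.61e-05), both against tumours.

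No fall of an origin recognition subunit passed against tumours. The subunits Orc2 to Orc5 belong to a neighbouring list. Orc2, Orc3 and Orc4 rose in 3D bioink against tumours (log2 fold change 0.79, 1.13 and 0.84), and Orc5 was not called (0.24). In 2D culture against tumours all of them rose (1.48, 0.92, 0.57 and 0.65). Of all tested genes, 27.1% and 27.3% rose in these comparisons. Orc1, the largest subunit and one that binds ATP, had 179, 203 and 196 in 3D bioink, 306, 321 and 361 in 2D culture, and 157, 166 and 151 in tumours. The 3D bioink libraries lay between the other groups without overlap, and the log2 fold change against tumours was 0.28 (SE 0.13, limma adjusted p = 0.0759). That call changed to higher under 6 of 21 other settings, among them all 4 other scalings (log2 fold change 0.38 to 0.55). In 2D culture Orc1 was 2.07-fold higher than in tumours (limma adjusted p = 6.61e-05). Orc6, the smallest subunit, had 468, 351 and 340 in 3D bioink, 967, 905 and 976 in 2D culture, and 474, 509 and 438 in tumours, with 3D bioink replicate 1 inside the tumour range. It rose 2.00-fold in 2D culture against tumours (limma adjusted p = 8.31e-05) and was not called in 3D bioink (log2 fold change -0.31, limma adjusted p = 0.0554). Without 3D bioink replicate 1, Orc6 fell in 3D bioink against tumours (log2 fold change -0.45), as it did with array weights (-0.46).

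The 6 helicase activation genes separated into strongly and weakly moving members. Gins1, a subunit of the GINS complex, had the lowest log2 fold change of the 43 genes in 3D bioink against 2D culture. Its normalized counts were 63, 55 and 50 in 3D bioink, 254, 193 and 239 in 2D culture, and 117, 155 and 105 in tumours, with no overlap. It was 4.02-fold lower in 3D bioink than in 2D culture (log2 fold change -2.01, SE 0.21, limma adjusted p = 2.53e-05) and 2.20-fold lower than in tumours (limma adjusted p = 0.000973). Cdc45, the partner that completes the active helicase, had 252, 274 and 279 in 3D bioink, 1000, 955 and 987 in 2D culture, and 534, 560 and 740 in tumours. Its log2 fold change was -1.17 in 3D bioink and 0.70 in 2D culture against tumours, and -1.87 between the cultures. Mcm10, which acts as the assembled helicase is switched on, had 577, 568 and 676 in 3D bioink, 2030, 2026 and 1984 in 2D culture, and 998, 928 and 1046 in tumours. Mcm10 was 2.03-fold higher in 2D culture than in tumours (limma adjusted p = 3.14e-06) and 1.63-fold lower in 3D bioink than in tumours (limma adjusted p = 3.61e-05).

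The other GINS subunits moved less. Gins4 had 376, 360 and 322 in 3D bioink, 687, 727 and 663 in 2D culture, and 499, 464 and 448 in tumours, and its fall in 3D bioink against tumours (log2 fold change -0.42, limma adjusted p = 0.00303) was not called under quantile normalization, equal upper quartiles or equal totals. Gins2 had 504, 614 and 543 in 3D bioink, 855, 823 and 914 in 2D culture, and 728, 723 and 787 in tumours. It fell in 3D bioink against tumours (log2 fold change -0.43, limma adjusted p = 0.00196), though not at equal upper quartiles (-0.19) or equal totals (-0.17), and was not called in 2D culture (0.21, limma adjusted p = 0.0728). In 4 of 21 other settings Gins2 was called higher in 2D culture against tumours, namely equal totals (0.28), only the 6 libraries compared, and without 3D bioink replicate 1 or 2 (0.21 in each). Gins3 ranged over 261 to 284 in 3D bioink, 291 to 346 in 2D culture and 222 to 354 in tumours, and passed in none of the comparisons. Its sign against tumours depended on the scaling.

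**Figure D2:**
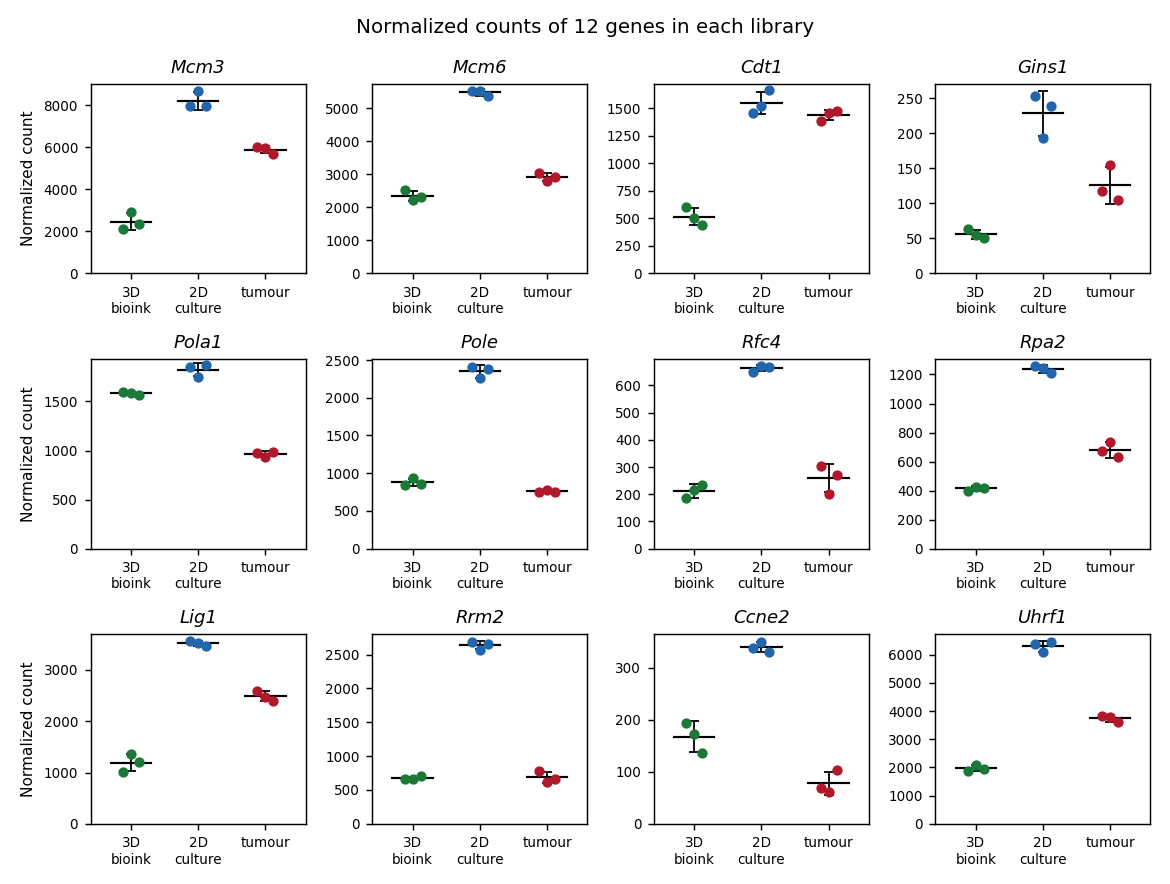
Normalized count (vertical axes, each from 0) of 12 replication genes in each library, as points for 3D bioink (green), 2D culture (blue) and tumours (red), with horizontal bars for the group mean and whiskers for the SD (n = 3). Pola1, Pole and Ccne2 stand between the other groups in 3D bioink, Rrm2 and Rfc4 overlap tumours there, and Cdt1 in 2D culture overlaps tumours.

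The DNA polymerases divided by subunit. The catalytic subunits of polymerase alpha (Pola1) and epsilon (Pole) rose in both cultures against tumours, whereas the other 4 genes of this class fell in 3D bioink against tumours. Pola1, which extends the first primers, had normalized counts of 1595, 1586 and 1566 in 3D bioink, 1852, 1752 and 1868 in 2D culture, and 975, 930 and 987 in tumours. It was 1.64-fold higher in 3D bioink than in tumours (log2 fold change 0.71, SE 0.05, limma adjusted p = 2.24e-06) and 1.89-fold higher in 2D culture than in tumours (limma adjusted p = 4.02e-07). Its fall in 3D bioink against 2D culture (log2 fold change -0.20, SE 0.05, limma adjusted p = 0.0089) was not called under any of 4 other scalings, and the sign turned at equal upper quartiles (0.026). Pole, the leading strand polymerase, had 842, 934 and 859 in 3D bioink, 2409, 2255 and 2383 in 2D culture, and 751, 782 and 747 in tumours. In 2D culture it was 3.09-fold higher than in tumours (log2 fold change 1.63, SE 0.06, limma adjusted p = 2.28e-08). In 3D bioink it was 1.15-fold higher (limma adjusted p = 0.0161), a call lost without 3D bioink replicate 2 (log2 fold change 0.16) and with only the 6 libraries compared (0.21).

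Pola2, the second subunit of polymerase alpha, differed from Pola1. It had 287, 369 and 369 in 3D bioink, 1074, 929 and 930 in 2D culture, and 735, 1039 and 791 in tumours, where tumour replicate 2 lay within the 2D culture range. It fell 2.49-fold in 3D bioink against tumours (log2 fold change -1.31, SE 0.15, limma adjusted p = 3.26e-05) and was not called in 2D culture (0.21, limma adjusted p = 0.27). Prim1, the catalytic subunit of primase, had 330, 407 and 448 in 3D bioink, 1121, 1179 and 1147 in 2D culture, and 648, 561 and 539 in tumours. Its 1.48-fold fall in 3D bioink against tumours (limma adjusted p = 0.00207) was not called at equal upper quartiles (log2 fold change -0.33). Prim2, the large primase subunit, had 230, 322 and 299 in 3D bioink, 834, 813 and 758 in 2D culture, and 495, 503 and 559 in tumours, a log2 fold change of -0.88 in 3D bioink and 0.63 in 2D culture against tumours. Pold1, the catalytic subunit of polymerase delta, had 701, 743 and 673 in 3D bioink, 1744, 1711 and 1732 in 2D culture, and 1540, 1441 and 1559 in tumours. Pold1 was 2.14-fold lower in 3D bioink than in tumours (limma adjusted p = 2.81e-07), while its rise in 2D culture was small (log2 fold change 0.19, limma adjusted p = 0.0229) and was lost when any 2D culture library or tumour replicate 2 was left out.

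Of the sliding clamp and its loader, the clamp and Rfc5 moved in both cultures, and the loader subunits differed among themselves. Pcna, the clamp, had 1855, 1515 and 1621 in 3D bioink, 2841, 2845 and 2903 in 2D culture, and 2519, 2099 and 2274 in tumours. It fell 1.38-fold in 3D bioink (limma adjusted p = 0.000926) and rose 1.25-fold in 2D culture (limma adjusted p = 0.0099), both against tumours, and the fall was not called at equal totals (log2 fold change -0.20). Rfc3 had 90, 127 and 189 in 3D bioink, 356, 340 and 362 in 2D culture, and 353, 326 and 320 in tumours. It was 2.56-fold lower in 3D bioink than in tumours (log2 fold change -1.36, SE 0.23, limma adjusted p = 0.000485), and 2D culture overlapped tumours. Rfc4 showed the reverse, with 185, 217 and 233 in 3D bioink, 650, 670 and 668 in 2D culture, and 305, 202 and 272 in tumours. It rose 2.58-fold in 2D culture against tumours (limma adjusted p = 4.73e-05), and 3D bioink overlapped tumours (log2 fold change -0.28, limma adjusted p = 0.147), with a fall called without tumour replicate 2 (-0.45). Rfc5 had 567, 653 and 572 in 3D bioink, 1514, 1431 and 1594 in 2D culture, and 1109, 1013 and 1040 in tumours, a log2 fold change of -0.82 in 3D bioink and 0.52 in 2D culture against tumours. Rfc2 ranged over 159 to 269 in 3D bioink, 252 to 283 in 2D culture and 250 to 317 in tumours and passed in none of the comparisons. It was called lower in 3D bioink against tumours with array weights (log2 fold change -0.37), without 3D bioink replicate 2 (-0.62) and without tumour replicate 1 (-0.57), and in 3D bioink against 2D culture without 3D bioink replicate 2 (-0.50).

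Single-strand DNA behind the helicase is coated by the trimer of Rpa1, Rpa2 and Rpa3. Rpa2 had normalized counts of 396, 427 and 420 in 3D bioink, 1258, 1248 and 1207 in 2D culture, and 675, 737 and 629 in tumours, with no overlap. It was 2.98-fold lower in 3D bioink than in 2D culture (log2 fold change -1.58, SE 0.08, limma adjusted p = 1.82e-07) and 1.64-fold lower than in tumours (limma adjusted p = 2.9e-05). Rpa1 had 1071, 1087 and 1369 in 3D bioink, 3276, 3187 and 3162 in 2D culture, and 1441, 1396 and 1448 in tumours. Its 2.25-fold rise in 2D culture against tumours held (limma adjusted p = 2.3e-06), but its fall in 3D bioink (log2 fold change -0.29, limma adjusted p = 0.0158) was not called under any of 4 other scalings (-0.20 to -0.027), with array weights (-0.11) or without 3D bioink replicate 2 (-0.24). Rpa3 had 126, 75 and 141 in 3D bioink, 258, 173 and 253 in 2D culture, and 250, 119 and 95 in tumours, so that its tumour libraries spread over the ranges of both cultures. Its fall in 3D bioink against 2D culture (log2 fold change -1.02, SE 0.37, limma adjusted p = 0.0381) was lost in 7 of 21 other settings, among them equal upper quartiles (-0.79), equal totals (-0.82), the median of ratios (-0.94), and without 3D bioink replicate 2 (-0.75), 2D culture replicate 1 (-0.92) or 2D culture replicate 3 (-0.93). Without tumour replicate 1, Rpa3 rose in 2D culture against tumours (1.07).

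On the lagging strand, Fen1 trims the flaps of Okazaki fragments and Lig1 seals them. Lig1 had 1018, 1360 and 1208 in 3D bioink, 3570, 3533 and 3471 in 2D culture, and 2589, 2482 and 2392 in tumours. It was 2.09-fold lower in 3D bioink than in tumours (log2 fold change -1.07, SE 0.09, limma adjusted p = 5.32e-06) and 1.42-fold higher in 2D culture than in tumours (limma adjusted p = 0.00111). Fen1 had 976, 1182 and 1124 in 3D bioink, 2430, 2492 and 2525 in 2D culture, and 2109, 2126 and 2103 in tumours. It fell 1.94-fold in 3D bioink against tumours (limma adjusted p = 1.88e-06), and its rise in 2D culture (log2 fold change 0.23, limma adjusted p = 0.0187) was lost without 2D culture replicate 2 (0.23) or 3 (0.22).

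**Figure D3:**
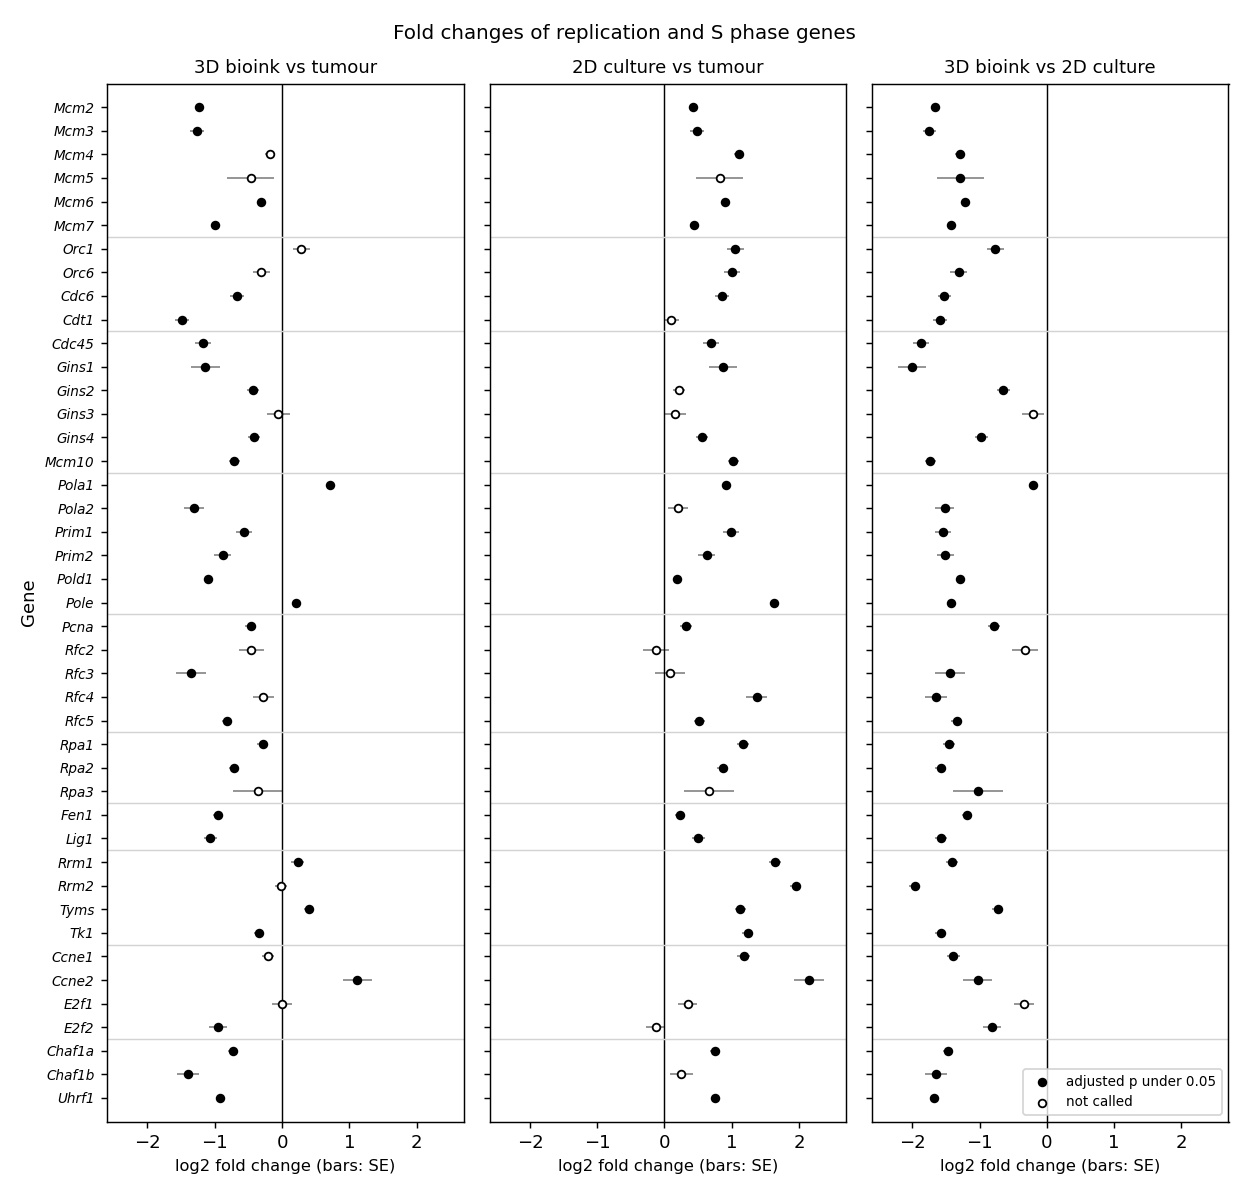
Log2 fold change (horizontal axes, on the log2(value + 1) scale) of the 43 tested replication genes, one row each, in 3D bioink against tumours, 2D culture against tumours and 3D bioink against 2D culture, with bars for the SE. Filled points passed limma at an adjusted p under 0.05 and open points did not. In the panel of 3D bioink against tumours the filled points lie on both sides of 0, with 27 to the left and 5 to the right, and in the panel of 3D bioink against 2D culture every point is left of 0.

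All 4 genes that supply deoxynucleotides rose in 2D culture against tumours, where 27.3% of all tested genes rose. In 3D bioink they lay within 0.40 of tumours on the log2 scale. Summed over the 4 genes, normalized counts were 3050 to 3326 in 3D bioink, 8443 to 8711 in 2D culture and 2843 to 2998 in tumours, so that here 3D bioink was above tumours. Rrm2, the small subunit of ribonucleotide reductase and the one that limits its activity in S phase, had 667, 662 and 700 in 3D bioink, 2687, 2573 and 2663 in 2D culture, and 780, 616 and 665 in tumours. It was 3.86-fold higher in 2D culture than in tumours (log2 fold change 1.95, SE 0.09, limma adjusted p = 5.32e-08) and 3.90-fold lower in 3D bioink than in 2D culture (limma adjusted p = 9.18e-08). Its 3D bioink and tumour libraries overlapped (log2 fold change -0.02, limma adjusted p = 0.879), with a sign that turned under all 4 other scalings (0.079 to 0.25) and a call of higher at equal totals (0.25). Rrm1, the large subunit, had 1163, 1231 and 1363 in 3D bioink, 3302, 3354 and 3319 in 2D culture, and 933, 1081 and 1194 in tumours. It was 3.12-fold higher in 2D culture than in tumours (limma adjusted p = 2.77e-07). In 3D bioink the rise was small, with groups that overlapped (log2 fold change 0.23, limma adjusted p = 0.0492), and it was not called in 10 of 21 other settings, among them without 3D bioink replicate 2 or 3, any 2D culture library, or tumour replicate 1 or 2 (0.14 to 0.24).

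The thymidylate enzymes went separate ways in the bioink. Tyms, which makes thymidylate from deoxyuridylate, had 740, 749 and 836 in 3D bioink, 1304, 1195 and 1361 in 2D culture, and 609, 566 and 586 in tumours, with 3D bioink between the other groups. It was 1.32-fold higher in 3D bioink (log2 fold change 0.40, SE 0.08, limma adjusted p = 0.00147) and 2.19-fold higher in 2D culture (limma adjusted p = 1.33e-06) than in tumours. Tk1, the salvage kinase that phosphorylates thymidine, had 480, 466 and 427 in 3D bioink, 1416, 1321 and 1368 in 2D culture, and 610, 580 and 553 in tumours. It rose 2.35-fold in 2D culture against tumours (limma adjusted p = 5.48e-07), and its 1.27-fold fall in 3D bioink (limma adjusted p = 0.00292) was not called under quantile normalization, equal upper quartiles or equal totals (log2 fold change -0.18, -0.11 and -0.082).

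The 4 control genes of the passage from G1 to S did not move as a block. Cyclin E2, encoded by Ccne2 and an activator of the kinase Cdk2, had normalized counts of 194, 172 and 136 in 3D bioink, 338, 350 and 330 in 2D culture, and 68, 62 and 103 in tumours. It was 2.17-fold higher in 3D bioink than in tumours (log2 fold change 1.12, SE 0.22, limma adjusted p = 0.00128) and 4.43-fold higher in 2D culture than in tumours (log2 fold change 2.15, limma adjusted p = 1.82e-05), the highest of the 43 genes in both comparisons. Cyclin E1, encoded by Ccne1, had 373, 394 and 470 in 3D bioink, 1101, 1073 and 1052 in 2D culture, and 474, 460 and 488 in tumours. It rose 2.27-fold in 2D culture against tumours (limma adjusted p = 3.54e-06), and in 3D bioink replicate 3 lay inside the tumour range (log2 fold change -0.21, limma adjusted p = 0.0804). Without that library Ccne1 fell in 3D bioink (-0.31), and at equal upper quartiles and equal totals its sign turned (0.031 and 0.055).

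The transcription factors E2f1 and E2f2 were not called in 2D culture against tumours. E2f1 had 726, 569 and 522 in 3D bioink, 757, 726 and 801 in 2D culture, and 717, 507 and 593 in tumours, and passed in none of the comparisons. E2f1 was called higher in 2D culture against tumours in 5 of 21 other settings, which were equal totals (log2 fold change 0.41), array weights (0.35), the replicate block (0.34), and without 3D bioink replicate 1 (0.34) or tumour replicate 1 (0.47). In 3D bioink against 2D culture it was called lower in 4, which were array weights (-0.50), the replicate block (-0.34), and without 3D bioink replicate 1 (-0.48) or tumour replicate 1 (-0.34). E2f2 had 124, 134 and 145 in 3D bioink, 250, 231 and 230 in 2D culture, and 285, 263 and 233 in tumours. It fell 1.93-fold in 3D bioink against tumours (log2 fold change -0.95, SE 0.14, limma adjusted p = 0.000176), and 2D culture overlapped tumours (-0.13, limma adjusted p = 0.449), with a sign that turned after quantile normalization (0.063).

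Behind the fork, chromatin is rebuilt by the CAF-1 subunits Chaf1a and Chaf1b, and Uhrf1 recruits the maintenance DNA methyltransferase. All 3 genes fell in 3D bioink against tumours and against 2D culture, where 37.3% and 32.2% of all tested genes fell. Uhrf1 had 1879, 2096 and 1953 in 3D bioink, 6395, 6086 and 6451 in 2D culture, and 3830, 3792 and 3611 in tumours. It was 3.19-fold lower in 3D bioink than in 2D culture (log2 fold change -1.68, SE 0.05, limma adjusted p = 1.87e-08), 1.90-fold lower in 3D bioink than in tumours (limma adjusted p = 4.22e-07) and 1.69-fold higher in 2D culture than in tumours (limma adjusted p = 1.76e-06). Chaf1a had 1021, 1194 and 1157 in 3D bioink, 3005, 3142 and 3217 in 2D culture, and 1774, 1917 and 1900 in tumours, with log2 fold changes of -0.73 in 3D bioink and 0.74 in 2D culture against tumours. Its partner Chaf1b had 142, 108 and 118 in 3D bioink, 382, 383 and 386 in 2D culture, and 267, 315 and 396 in tumours, where tumour replicate 3 lay above 2D culture. Chaf1b fell 2.63-fold in 3D bioink against tumours (log2 fold change -1.39, SE 0.17, limma adjusted p = 4.84e-05) and was not called in 2D culture (0.25, limma adjusted p = 0.229).

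By the median of the replication genes, single libraries of different groups did not overlap, and the 3D bioink libraries spread most. The median over the 43 genes of the log2 difference from the tumour mean was -0.78, -0.60 and -0.50 in the 3D bioink libraries, 0.77, 0.65 and 0.79 in the 2D culture libraries, and between -0.03 and 0.01 in the tumour libraries. 3D bioink replicate 1 was the lowest library of its group for 25 of the 43 genes. Without it, 29 genes fell and 5 rose in 3D bioink against tumours, with a median of -0.46. Of the 32 calls in 3D bioink against tumours, 23 held in all 21 other settings, 20 of them falls. For 2D culture against tumours 30 of 32 held, and for 3D bioink against 2D culture 38 of 40.

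Lists of neighbouring genes were described beside the 44. Their counts stand beside 37.3% of all tested genes that fell and 27.1% that rose in 3D bioink against tumours, 27.0% that fell and 27.3% that rose in 2D culture against tumours, and 32.2% that fell and 27.0% that rose in 3D bioink against 2D culture. Of 33 other replication factors, 15 fell (45.5%) and 10 rose (30.3%) in 3D bioink against tumours (median -0.32), shares near those of all genes. Of the same list 23 rose (69.7%) in 2D culture against tumours (median 0.62), and 26 fell (78.8%) and 1 rose in 3D bioink against 2D culture (median -0.76). Topoisomerase II alpha, encoded by Top2a, stood out among the risers, with 3819, 4138 and 4219 in 3D bioink, 6627, 6660 and 6613 in 2D culture, and 1709, 1797 and 1751 in tumours. Timeless, a fork protection factor, had 423, 703 and 593 in 3D bioink, 2079, 2153 and 2114 in 2D culture, and 1496, 1534 and 1482 in tumours, a log2 fold change of -1.42 in 3D bioink against tumours. Topoisomerase I, encoded by Top1, was the 1 riser of this list in 3D bioink against 2D culture (log2 fold change 0.37).

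Of 12 other genes of nucleotide supply, 10 fell and 2 rose in 3D bioink against tumours (median -0.90), 10 rose and 2 fell in 2D culture against tumours (median 0.62), and 10 fell and 1 rose in 3D bioink against 2D culture (median -1.41). Rrm2b, the ribonucleotide reductase subunit that p53 induces, rose in 3D bioink, where Rrm2 was not called, with 869, 666 and 754 in 3D bioink, 611, 606 and 599 in 2D culture, and 349, 287 and 310 in tumours (log2 fold change 1.27 in 3D bioink against tumours, SE 0.11, limma adjusted p = 6.69e-06). Samhd1 degrades deoxynucleotides and is abundant in myeloid cells. It had 964, 949 and 902 in 3D bioink, 1816, 1826 and 1774 in 2D culture, and 6712, 6561 and 6293 in tumours. It fell in 3D bioink and 2D culture against tumours (log2 fold change -2.80 and -1.85), and in 3D bioink against 2D culture (-0.94). The microglia and macrophage sums given above were higher in 3D bioink than in 2D culture. The part of myeloid cells in the Samhd1 values was not tested. Dut, which removes deoxyuridine triphosphate, had the lowest log2 fold change of the list in 3D bioink against 2D culture (-1.97).

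Of 24 E2F, RB and CDK2 regulators, 11 fell (45.8%) and 9 rose (37.5%) in 3D bioink against tumours, where 37.3% of all tested genes fell and 27.1% rose. In this list 15 rose and 2 fell in 2D culture against tumours, and 18 fell and 5 rose in 3D bioink against 2D culture. Rb1, the retinoblastoma protein that restrains E2F, had 849, 547 and 754 in 3D bioink, 193, 185 and 157 in 2D culture, and 237, 187 and 297 in tumours. It was higher in every 3D bioink library than in any other library (log2 fold change 1.57 against tumours, SE 0.21, limma adjusted p = 9.2e-05, and 1.98 against 2D culture). E2f8, a repressor of the family that E2F itself induces, had 426, 454 and 396 in 3D bioink, 1854, 1877 and 1918 in 2D culture, and 728, 687 and 585 in tumours. Of the rest, E2f4 fell in 3D bioink against tumours (log2 fold change -1.23), Ccna2, cyclin A2, rose in 2D culture against tumours (1.93), and Ccnd3, cyclin D3, fell there (-0.76). Of 13 other S phase chromatin genes, 7 fell and 4 rose in 3D bioink against tumours, 12 rose in 2D culture against tumours, and 11 fell in 3D bioink against 2D culture. Among them Cdca7 had log2 fold changes of -1.83 in 3D bioink against tumours and -2.43 in 3D bioink against 2D culture, and Usp1, a deubiquitinase that acts on Pcna, 0.93 and 1.72 in 3D bioink and 2D culture against tumours.

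Mitosis genes, which peak later in the cycle, are given beside the replication genes. Of 26 mitosis genes, 10 fell (38.5%) and 8 rose (30.8%) in 3D bioink against tumours, close to the 37.3% and 27.1% of all tested genes, with a median log2 fold change of 0.05 against -0.47 for the replication genes and -0.11 for all tested genes. In 2D culture against tumours 24 rose (median 1.37), and in 3D bioink against 2D culture 22 fell (median -1.33). Cdc20, an activator of the anaphase-promoting complex, fell in 3D bioink against tumours (log2 fold change -1.003) and the kinase Plk1 in 3D bioink against 2D culture (-1.94). The checkpoint kinase Ttk had 70, 83 and 104 in 3D bioink, 244, 217 and 191 in 2D culture, and 23, 49 and 0 in tumours, and its log2 fold changes of 3.01 and 4.35 against tumours rest on the tumour library listed at 0. The difference between the lists was not tested.

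**Figure D4:**
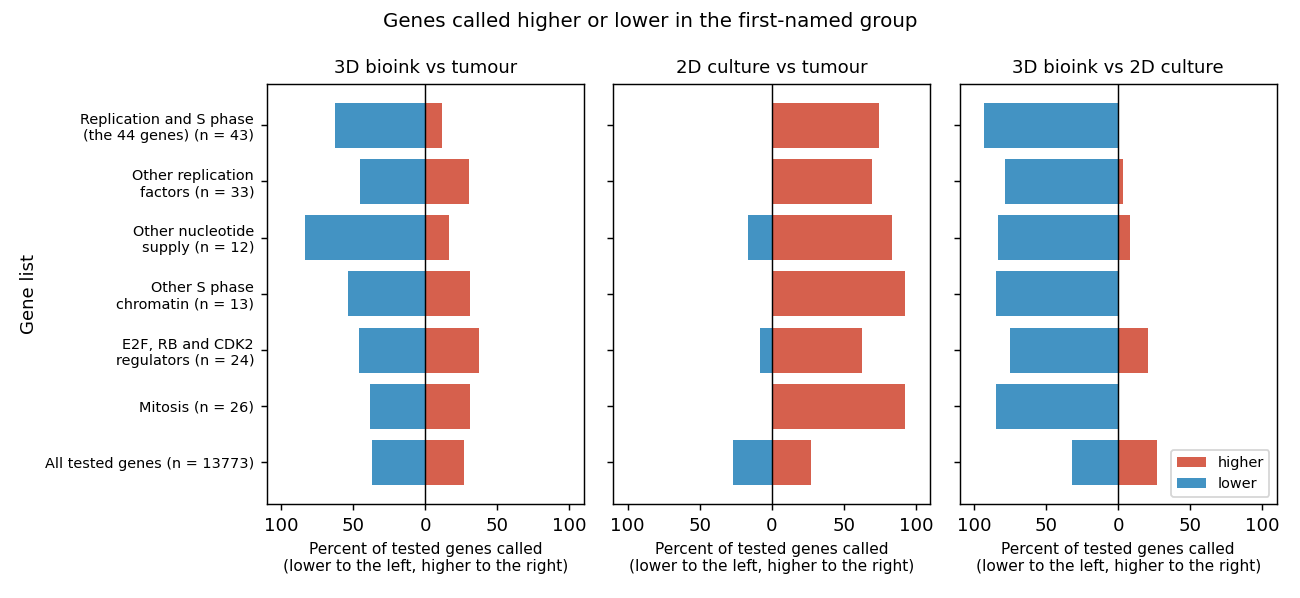
Percent of tested genes called lower (blue, to the left) and higher (red, to the right) by limma at an adjusted p under 0.05, for the replication genes, 5 neighbouring lists and all 13773 tested genes (rows), in each of the 3 comparisons (panels). In 3D bioink against tumours, 62.8% of the replication genes fell and 11.6% rose, and in 3D bioink against 2D culture 93.0% fell.

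**Figure D5:**
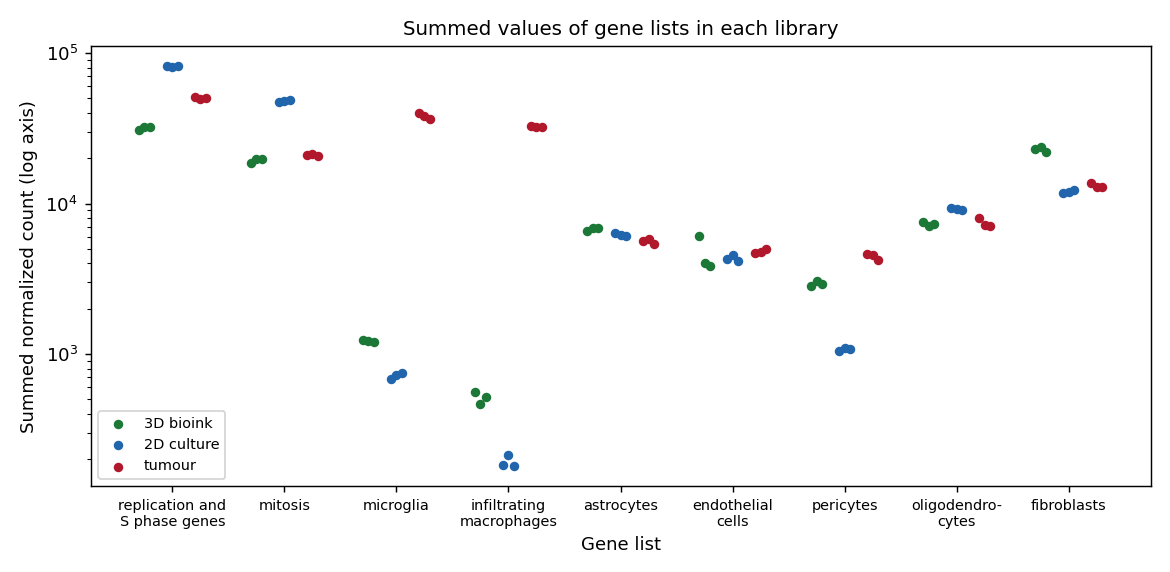
Summed normalized count (log axis) of the replication genes, mitosis genes and 7 lists of cell type markers in each of the 9 libraries, as points for 3D bioink (green), 2D culture (blue) and tumours (red). The replication genes are ordered 3D bioink, tumours, 2D culture from low to high, while microglia and macrophage markers are far higher in tumours than in either culture.

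Some of these values carry limits of annotation. In GENCODE (release M21, GRCm38), 12 of the 44 genes have an exon that overlaps an exon of a protein-coding gene, in every case on the opposite strand. They are Ccne2, Cdc45, Chaf1a, Fen1, Gins2, Lig1, Mcm7, Orc6, Rfc2, Rfc4, Rfc5 and Tk1. The library kit keeps strand, but the sources used here do not say whether reads were assigned by strand. Pcna and Tyms have annotated pseudogenes that carry their names, so reads may have been shared with these copies. Pseudogenes under other names were not searched for any of the genes.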

How the data were processed

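RNA was measured in 9 libraries, 3 per group. The values the authors deposited are a score for each gene in each library: normalized counts, rounded to integers. The mouse build was mm10, and the tools were kallisto, RSEM, DESeq and DESeq2 (version 1.24.0), all per the submitters' processing notes, which give no role or order. Read depth is unknown, and the normalized totals (13548461 to 16388074) are not depths. Libraries were made from 25 to 75 ng of RNA with 14 PCR cycles, per the labels' protocols.

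From these values 1 limma model (version 3.58.1, R 4.3.3; lmFit, eBayes with trend) was fitted to log2(value + 1) of all 9 libraries and the 13773 genes with a mean of at least 10. The p-values were adjusted by Benjamini-Hochberg over all of them, with a threshold of 0.05. A fold change on this scale understates the change of low genes. Alternatives changed the pseudocount, filter, scaling, weights, libraries and replicate block.

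The members and lists were chosen with earlier results of these data known. Values in every library were due for the largest log2 fold change of each of 10 classes in each comparison, for members called in opposite directions against tumours, and for members that ran against most others between the cultures. For each neighbouring list and comparison, the called gene with the largest log2 fold change in each direction was named, except 1 that is not reported here. The other members, and Orc2 to Orc5, were given for completeness. All 9 columns of the table were used and 0 were left out.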

Additional observations from a re-analysis of the deposited data

Results flagged for a closer look

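The differences of the 2 cultures from tumours were themselves different for 40 of the 43 tested replication genes, by the limma contrast of 3D bioink against 2D culture, in which the shared tumour libraries drop out. All 40 were lower in 3D bioink, and the other 3 genes also had a negative log2 fold change. Of all tested genes, 59.2% were called in this contrast, and 32.2% were called lower. It is the comparison between the cultures already given above. The lowest was Gins1, at -2.01, with 63, 55 and 50 normalized counts in 3D bioink and 254, 193 and 239 in 2D culture. Groups of 3 libraries are too small for a check of single outlying libraries.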

How the results depend on the processing

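In 21 other settings the direction of the median over the replication genes held in each comparison. Its size depended on the scaling. In 3D bioink against tumours the median was -0.30 after quantile normalization, -0.23 at equal upper quartiles and -0.21 at equal totals, and ranged from -0.62 to -0.46 when single libraries were left out. In 3D bioink against 2D culture it was -1.23, -1.19 and -1.22 under the same scalings. The count of genes that rose in 3D bioink against tumours was 3 with only the 6 libraries compared and ranged from 3 to 5 when single libraries were left out. The signs of some genes turned. In 3D bioink against tumours, quantile normalization, equal upper quartiles and equal totals gave 0.19, 0.18 and 0.21 for Gins3 and 0.15, 0.22 and 0.25 for Rrm2. Equal upper quartiles and equal totals gave 0.055 and 0.079 for Mcm4 and 0.031 and 0.055 for Ccne1. The median of ratios gave 0.041 for Gins3 and 0.079 for Rrm2, and array weights gave 0.032 for Gins3, 0.034 for Rrm2 and -0.14 for E2f1. Single libraries left out gave ranges of -0.22 to 0.12 for Gins3, -0.64 to 0.050 for Rpa3, -0.091 to 0.079 for Rrm2 and -0.14 to 0.13 for E2f1 in this comparison, and -0.010 to 0.32 for Gins3 in 2D culture against tumours. Quantile normalization gave 0.041 for Rfc2 and 0.063 for E2f2 in 2D culture against tumours, and equal upper quartiles gave 0.022 for Gins3 and 0.026 for Pola1 in 3D bioink against 2D culture. The cause was not tested.

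The sources used here do not say whether the replicate numbers pair the libraries. Deviations of same-numbered libraries correlated at -0.03 to 0.08 across genes, and those of differently numbered libraries at -0.06 to 0.05. With 3 libraries a group, these values cannot settle whether libraries were paired. With the number as a replicate block, 27 genes fell and 5 rose in 3D bioink against tumours, 33 rose in 2D culture against tumours, and 41 fell in 3D bioink against 2D culture. E2f1 was not called without the block and was called in both of the last comparisons with it. Read depth is unknown. With 3 libraries a group, the difference that passed depended on the spread of the gene, from 0.19 for Pold1, which passed, to 0.82 for Mcm5, which did not, both in 2D culture against tumours.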
